A study of Homo sapiens with 6 samples.

Results

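The MAP kinase phosphatases are dual-specificity enzymes: each removes phosphate from both the threonine and the tyrosine that switch a MAP kinase on. The genes described here are 9 of them (DUSP1, DUSP2, DUSP4, DUSP5, DUSP6, DUSP7, DUSP8, DUSP10 and DUSP16) and KRTAP5-AS1, a noncoding transcript from the opposite strand beside DUSP8. They were found by their symbol in a table of 58051 genes, where each of the 10 had 1 row. The set was chosen by gene family, with KRTAP5-AS1 added as the antisense transcript of DUSP8, when the differences between the groups of these libraries were already known. The values of the 10 genes are therefore a description. No test of them is given as support, and "called" says only that a gene passed the threshold that was applied to the whole table.

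The libraries came from HEK293T, an established line derived from human embryonic kidney in which the SV40 T antigen is present. The cells were transiently transfected for 48 hours with either the empty plasmid pcDNA3.1- (3 libraries) or the plasmid pcDNA3.1-ppk1 (3 libraries), which expresses ppk1, the gene of a bacterial enzyme that makes polyphosphate chains. The libraries are lettered B, C and D, and the series text calls the empty vector and ppk1 libraries of 1 letter matched biological replicates. Both groups thus carry plasmid and a Lipofectamine reagent. The protocol gives a range of 2 to 28 µg of plasmid and names alternative reagents, without saying which applied to each library, and it does not give the share of cells that took up plasmid. In such bulk samples, fewer cells with a transcript and less of that transcript per cell cannot be told apart. The level of ppk1 itself was not analysed here.

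The libraries held between 40851783 and 67122986 counts, and in every pair ppk1 had the higher total. VIM, PAX2, LHX1, NEFL, NEFM and EMX2, markers of HEK293 lines, were detected in both groups at means from 3.00 to 509 CPM (the gene's reads scaled to the library total, by the usual factor), and NEFL was called lower with ppk1. Of 5 markers of other cells, PTPRC (blood) and PECAM1 (endothelium) had means of at most 0.152 CPM. The fibroblast genes COL1A1 (means of 18.5 CPM with empty vector, 19.6 with ppk1) and LUM (0.868, 0.566) were not called, and ALB of liver was called lower (0.632, 0.237). The part of these markers in the results was not tested. The number of called genes depended on replicate C: it was 1777 with all pairs and 406 without C.

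MAP kinases (ERK, JNK and p38) are the last step of kinase cascades that carry signals from growth factors and stress to the nucleus. Cells limit these signals by transcribing phosphatases, and several MAP kinase phosphatase genes are themselves targets of ERK, so their messages serve as a negative feedback. The family is usually divided into nuclear, inducible enzymes (DUSP1, DUSP2, DUSP4 and DUSP5), cytoplasmic enzymes that prefer ERK (DUSP6, DUSP7 and DUSP9) and enzymes that prefer JNK and p38 (DUSP8, DUSP10 and DUSP16).

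The promoter sequences below are those of the 2 genes that were lower with ppk1 and lie side by side, DUSP8 and KRTAP5-AS1, and of 2 inducible genes, DUSP1, which was not called, and DUSP2, which was called higher. They are RefSeq windows on GRCh38.p14, from 250 bases before to 50 bases after the start of the transcript, written 5′ to 3′ in the direction of the gene. The windows lie on the minus strand at chr11:1572222-1572521 (DUSP8), on the plus strand at chr11:1572491-1572790 (KRTAP5-AS1), on the minus strand at chr5:172771146-172771445 (DUSP1) and on the minus strand at chr2:96145391-96145690 (DUSP2). Capitals mark exact matches, on either strand, to the cAMP response element TGACGTCA (DUSP8 and DUSP1), to the TATA box TATAAA (DUSP1) and to the EGR motif GCGNGGGCG (DUSP2).
DUSP8: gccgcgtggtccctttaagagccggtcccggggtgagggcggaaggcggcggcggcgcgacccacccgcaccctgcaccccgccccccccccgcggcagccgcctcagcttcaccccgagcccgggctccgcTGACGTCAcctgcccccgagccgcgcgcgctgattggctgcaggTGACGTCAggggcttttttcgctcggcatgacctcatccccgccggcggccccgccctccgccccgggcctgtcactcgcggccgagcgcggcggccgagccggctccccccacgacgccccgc
KRTAP5-AS1: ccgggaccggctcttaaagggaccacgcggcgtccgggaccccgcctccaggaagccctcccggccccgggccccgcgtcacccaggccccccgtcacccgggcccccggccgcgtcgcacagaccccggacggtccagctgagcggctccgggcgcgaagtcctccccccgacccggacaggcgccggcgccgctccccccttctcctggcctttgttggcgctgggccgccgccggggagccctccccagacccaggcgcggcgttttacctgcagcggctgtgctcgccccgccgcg
DUSP1: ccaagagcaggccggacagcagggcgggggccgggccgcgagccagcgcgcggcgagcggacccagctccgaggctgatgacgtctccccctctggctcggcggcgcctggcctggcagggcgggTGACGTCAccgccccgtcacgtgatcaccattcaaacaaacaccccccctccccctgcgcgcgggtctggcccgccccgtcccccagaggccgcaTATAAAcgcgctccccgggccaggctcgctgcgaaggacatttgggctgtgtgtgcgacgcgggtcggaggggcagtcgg
DUSP2: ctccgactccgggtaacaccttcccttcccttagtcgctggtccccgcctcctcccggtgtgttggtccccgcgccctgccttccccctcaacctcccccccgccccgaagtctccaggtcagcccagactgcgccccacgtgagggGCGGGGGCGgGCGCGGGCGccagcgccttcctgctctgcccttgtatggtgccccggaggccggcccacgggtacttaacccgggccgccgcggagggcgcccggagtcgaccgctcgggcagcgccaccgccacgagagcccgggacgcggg

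Of the 10 genes, 8 had a promoter in the table, with 9 windows. The search covered 8 motifs: the cAMP response element, the AP-1 site TGANTCA, the CArG box, the ETS core CCGGAA, the EGR motif, the TATA box, the E-box CACGTG and the SP1 core GGGCGG. Both strands were searched. In DUSP2 the EGR match at -103 to -95 overlaps 2 SP1 matches. DUSP8 held TGACGTCA 2 times, at bases -118 to -111 and -74 to -67 from its start, and DUSP1 held it 1 time, at -125 to -118. Of all 35116 promoter windows of that length in the table, 1.85% held the element and 0.0598% (21 windows) held it at least 2 times. The DUSP2 window had 2 matches to GCGNGGGCG and the DUSP16 window had 1. Of all windows, 9.43% had at least 1 match and 1.59% had at least 2. The DUSP6 and KRTAP5-AS1 windows held none of the 8 motifs, and the DUSP7 window held the SP1 core alone, 3 times. That core was in 15786 of all 35116 windows. The AP-1 site (7.71% of all windows), the CArG box (1.29%) and the ETS core (17.2%) were in none of the 9 windows. The DUSP1, DUSP2, DUSP7, DUSP8, DUSP16 and KRTAP5-AS1 windows had a GC content between 73.3% and 78.7%, where the median of all windows was 58.7%. DUSP6 (58.3%) and both windows of DUSP10 (55.0%) were near that median. A match is a description of letters in this window and not evidence of binding.

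In the empty vector libraries the 9 phosphatases spanned a wide range of levels. Levels are compared between genes per length, as mean CPM per kb of exon ± SD (n = 3 libraries). DUSP1, the founding member, stood at 10.96 ± 0.85 CPM per kb and DUSP16, which acts on JNK and p38, at 9.78 ± 0.19. DUSP7, a cytoplasmic ERK phosphatase, stood at 6.66 ± 0.11 and DUSP8, which prefers JNK and p38, at 5.38 ± 0.77 CPM per kb. The others were much lower: DUSP5 at 1.27 ± 0.08, DUSP10 at 0.74 ± 0.04, DUSP2 at 0.54 ± 0.04, DUSP4 at 0.51 ± 0.05 and DUSP6, the classical ERK feedback phosphatase, at 0.16 ± 0.01 CPM per kb. KRTAP5-AS1, at 0.88 ± 0.05 CPM per kb, lay between DUSP5 and DUSP10. In this order the 3 libraries of DUSP2 and DUSP4 overlapped, and those of the other neighbours did not. DUSP9, the remaining active member of the family, which is not among the 9, stood highest at 11.9 ± 1.35 CPM per kb and its libraries overlapped those of DUSP1.

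**Figure D1:**
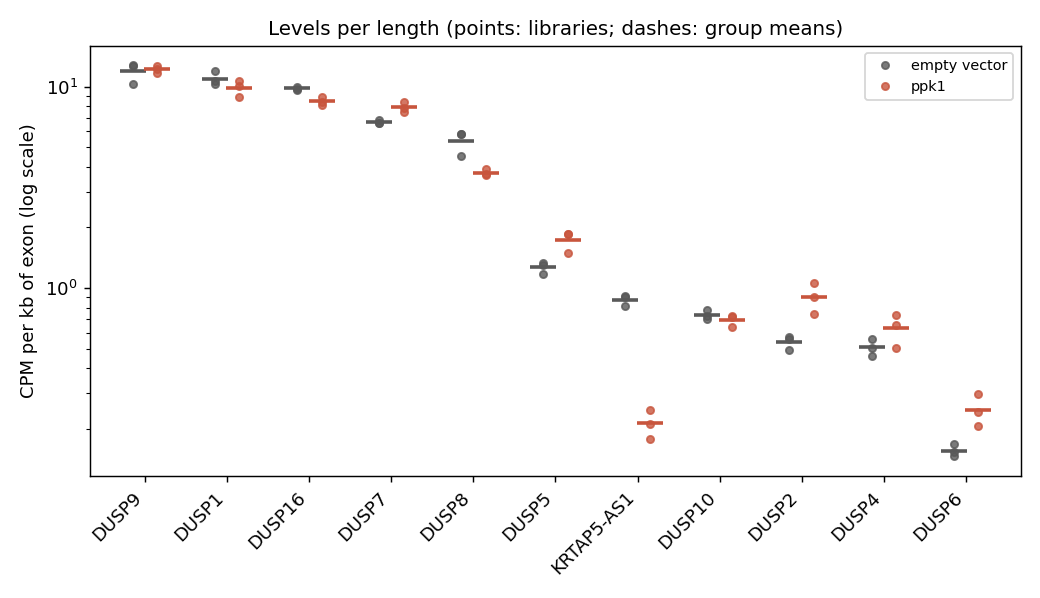
CPM per kb of exon (log scale) of the 9 phosphatases, KRTAP5-AS1 and DUSP9 in the 3 empty vector libraries (grey) and the 3 ppk1 libraries (red), with points for libraries and dashes for group means. The empty vector means run from 11.9 for DUSP9 to 0.16 for DUSP6, and KRTAP5-AS1 shows the widest gap between groups, 0.88 against 0.21.

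With ppk1, 4 phosphatase messages were higher (DUSP2, DUSP5, DUSP6 and DUSP7), 1 was lower (DUSP8) and KRTAP5-AS1 was lower. These 6 calls come from edgeR's quasi-likelihood test with the replicate letter as a block, at a Benjamini-Hochberg adjusted p below 0.05 over 19574 tested genes. All 10 genes passed the filter on low counts. In the same fit 9.08% of all tested genes were called, 4.04% higher and 5.04% lower, and since the genes were chosen with this contrast known, nothing is read from their share. Over the 9 phosphatases the median log2 fold change was 0.24, beside 0.01 over all tested genes. By sign alone, the 3 pairs pointed one way in 9 of the 10 genes. DUSP2, DUSP4, DUSP5, DUSP6 and DUSP7 were higher in each pair. DUSP1, DUSP8, DUSP16 and KRTAP5-AS1 were lower in each, while DUSP10 differed between pairs. Pair C of DUSP4 (log2 difference 0.01) and pair D of DUSP1 (-0.02) were nearly level. Of all tested genes, 22.6% were higher and 21.1% lower in all 3 pairs.

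The call of DUSP2 held in 6 of 9 alternatives, that of DUSP5 in 4 of 9, that of DUSP7 in 3 of 9 and that of DUSP6 in 2 of 8, while DUSP8 and KRTAP5-AS1 were called in all 9. Without the replicate block 0 members were called higher (4 at an unadjusted p below 0.05) and 2 lower, where 2.40% of all tested genes were called (0.455% higher and 1.95% lower), and DESeq2 called 0 of them higher (3 at an unadjusted p below 0.05) and 2 lower, where it called 1.89% of all genes with an adjusted p higher and 2.51% lower. Leaving out replicate C gave 0 higher (4 at an unadjusted p below 0.05) and 2 lower, where 0.415% of all tested genes were called higher and 1.64% lower. The shares called higher are small in these settings, so a count of 0 among 10 genes is near them. The 2 genes called lower are more than the shares called lower. Nothing is read from that, since the genes were chosen with this contrast known.

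**Figure D2:**
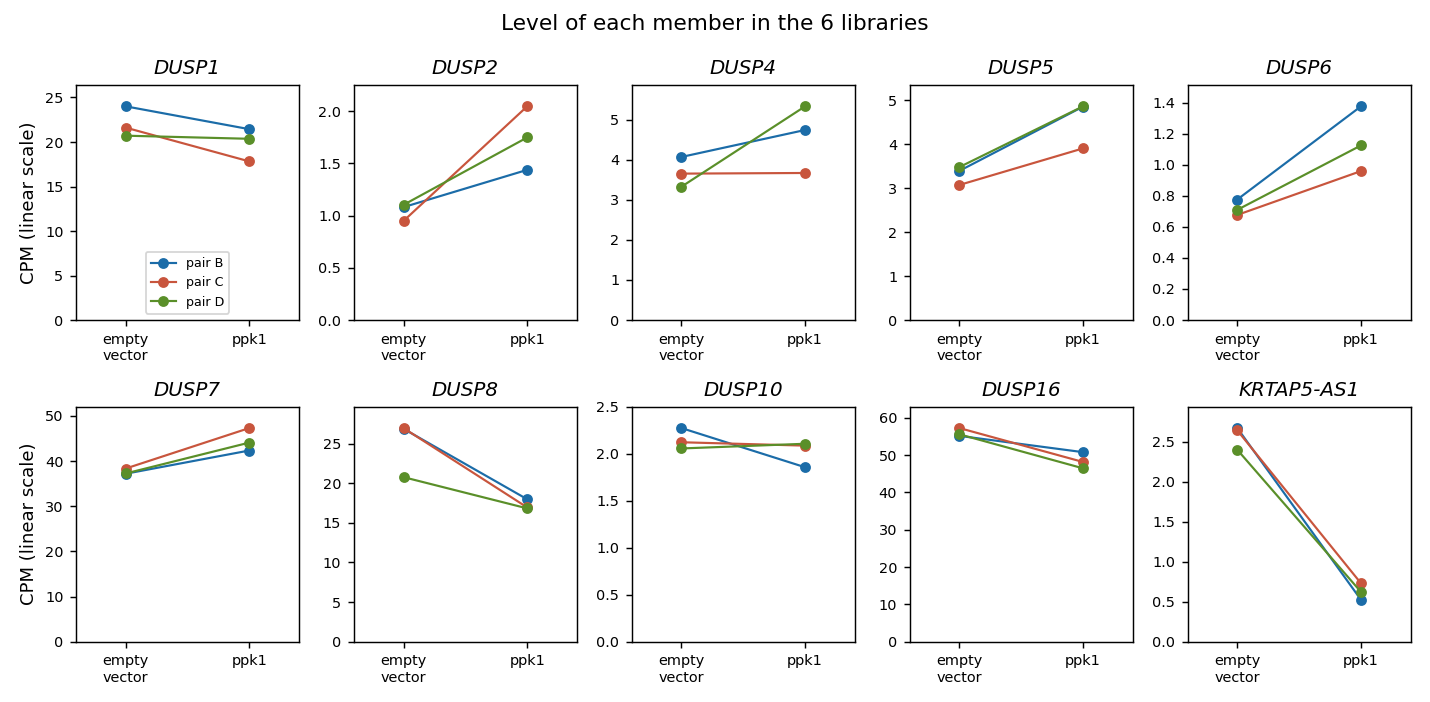
CPM (linear axis from 0) of each of the 10 genes in the empty vector and ppk1 libraries, with a line joining the matched libraries of each pair B, C and D. KRTAP5-AS1 lies between 2.40 and 2.67 CPM with empty vector and between 0.52 and 0.73 CPM with ppk1, while DUSP10 shows no common direction.

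Among the nuclear, inducible enzymes, DUSP2 showed the largest difference. DUSP2, an enzyme first found in activated lymphocytes, was at 1.08, 0.948 and 1.102 CPM in the empty vector libraries B, C and D and at 1.44, 2.05 and 1.75 CPM in the ppk1 libraries. All ppk1 libraries lay above all empty vector libraries, and pair C differed most. The log2 fold change was 0.72 (SE 0.19), from 57, 42 and 45 counts to 96, 98 and 73 counts. DUSP5, which dephosphorylates ERK in the nucleus, was at 3.39, 3.07 and 3.48 CPM in the empty vector libraries and at 4.85, 3.90 and 4.86 CPM with ppk1. The groups did not overlap, and the library ppk1 C was the lowest of its group, as empty vector C was of the other. The log2 fold change of DUSP5 was 0.45 (SE 0.13).

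DUSP4 and DUSP1 were not called. DUSP4, which acts on ERK and JNK in the nucleus, was at 4.07, 3.66 and 3.33 CPM in the empty vector libraries and at 4.75, 3.67 and 5.34 CPM with ppk1. The groups overlapped, because ppk1 C was level with its partner, and the log2 differences of pairs B, C and D were 0.22, 0.01 and 0.67. DUSP4's fitted log2 fold change was 0.30 (SE 0.13), and 0.10 without replicate D. DUSP1, an immediate early gene whose product acts on all 3 kinds of MAP kinase, was at 24.0, 21.6 and 20.7 CPM in the empty vector libraries and at 21.4, 17.8 and 20.4 CPM with ppk1. Its groups overlapped, and the log2 fold change was -0.16 (SE 0.08). The mean of DUSP1 was lower with ppk1 and those of DUSP2, DUSP4 and DUSP5 were higher, and the summed level of the 4 genes was 30.2 ± 2.11 CPM in the empty vector libraries and 30.7 ± 2.86 CPM with ppk1 (mean ± SD, n = 3). The sum was higher with ppk1 in pair D (log2 ratio 0.18), lower in pair C (-0.09) and level in pair B (-0.004). Summed per kb of exon, the 4 genes were at 13.3 ± 0.91 with empty vector and 13.1 ± 1.08 with ppk1.

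Both cytoplasmic ERK phosphatases of the set were higher. DUSP6 was at 0.78, 0.68 and 0.71 CPM in the empty vector libraries and at 1.38, 0.96 and 1.13 CPM with ppk1. The groups did not overlap, but the message was scarce, with 41, 30 and 29 counts in libraries B, C and D of the empty vector and 92, 46 and 47 with ppk1. The log2 fold change of DUSP6 was 0.68 (SE 0.22). DUSP7, a more abundant relative with the same preference, was at 37.2, 38.4 and 37.3 CPM in the empty vector libraries and at 42.4, 47.3 and 44.1 CPM with ppk1. The groups did not overlap, and the log2 fold change was small, 0.24 (SE 0.07). DUSP9, the third enzyme of this class, was at 35.1, 35.3 and 28.7 CPM in the empty vector libraries and at 33.9, 32.5 and 35.1 CPM with ppk1. Its groups overlapped, and it was higher with ppk1 only in pair D (log2 differences -0.05, -0.12 and 0.29). The summed level of DUSP6 and DUSP7 was 38.3 ± 0.61 CPM in the empty vector libraries and 45.8 ± 2.32 CPM with ppk1 (mean ± SD, n = 3), of which DUSP7 made up nearly all. With DUSP9 included, the class was at 71.4 ± 4.11 CPM in the empty vector libraries and at 79.6 ± 1.69 CPM with ppk1, 111.5% of the first value, where DUSP6 and DUSP7 alone came to 119.4%. The log2 ratios with DUSP9 were 0.09 (pair B), 0.12 (pair C) and 0.27 (pair D). Summed per kb of exon, the class with DUSP9 came to 108.6%, with log2 ratios of 0.04, 0.04 and 0.27.

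The enzymes that prefer JNK and p38 all had fitted values below 0, though that of DUSP10 was 0.0031 without replicate B. DUSP8 was at 26.9, 27.0 and 20.8 CPM in the empty vector libraries and at 18.0, 16.9 and 16.8 CPM with ppk1. The groups did not overlap, and empty vector D was the lowest of its group. The log2 fold change of DUSP8 was -0.52 (SE 0.08), which leaves 69.4% of the mean level, and it was called in each of the 9 alternatives. DUSP16, the most abundant of the 9 in CPM, was at 55.2, 57.2 and 55.6 CPM in the empty vector libraries and at 50.8, 48.2 and 46.5 CPM with ppk1. The groups did not overlap, yet DUSP16 was not called: its log2 fold change was -0.21 (SE 0.08), and it passed the threshold only without replicate B. DUSP10 was at 2.27, 2.12 and 2.06 CPM in the empty vector libraries and at 1.86, 2.09 and 2.11 CPM with ppk1. Its groups overlapped, and the log2 fold change was -0.10 (SE 0.16). The summed level of DUSP8, DUSP10 and DUSP16 was 83.0 ± 4.12 CPM in the empty vector libraries and 67.7 ± 2.65 CPM with ppk1 (mean ± SD, n = 3), and was lower in each pair (log2 ratios -0.26, -0.36 and -0.26).

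The total of the 9 phosphatases differed less between the groups than several of the 9 did singly. It leaves out DUSP9, whose means were 33.0 CPM with empty vector and 33.8 CPM with ppk1. All 9 phosphatases together were at 151.5 ± 5.63 CPM in the empty vector libraries and at 144.2 ± 2.25 CPM with ppk1 (mean ± SD, n = 3), 95.2% of the first value. Of the counts of these 9 genes, DUSP8 made up 17.3%, 17.4% and 14.3% in the empty vector libraries B, C and D. With ppk1 it made up 12.2%, 11.9% and 11.8%. The mean share of DUSP16 was 37.0% with empty vector and 33.6% with ppk1, and that of DUSP7 was 24.8% and 30.9%. In DUSP2, DUSP5, DUSP6 and DUSP7 all ppk1 libraries lay above all empty vector libraries, which held for 13.0% of all tested genes. In DUSP8, DUSP16 and KRTAP5-AS1 they all lay below, which held for 12.6%.

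**Figure D3:**
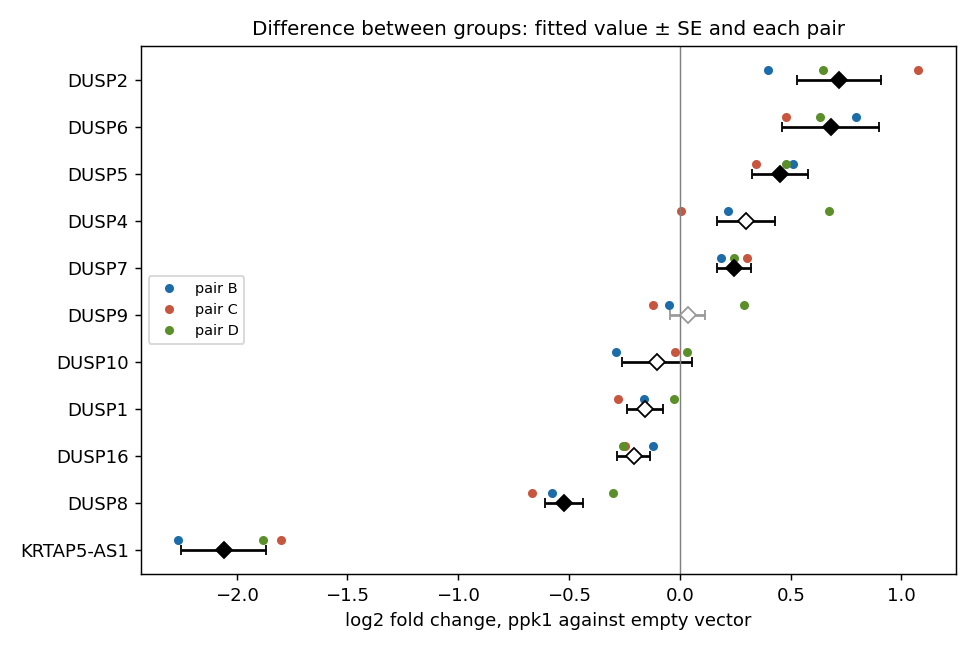
Log2 fold change of the 10 genes and of DUSP9 (grey), ppk1 against empty vector: diamonds are fitted values with their SE, filled where called, and coloured points are the pairs B, C and D. The values run from -2.06 for KRTAP5-AS1 to 0.72 for DUSP2, and the points of DUSP4 spread from 0.01 to 0.67.

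KRTAP5-AS1 (ENSG00000233930, chromosome 11) showed the largest difference of the set. It is annotated as an antisense transcript of the keratin-associated protein genes next to DUSP8. KRTAP5-AS1 was at 2.67, 2.64 and 2.40 CPM in the empty vector libraries and at 0.52, 0.73 and 0.62 CPM with ppk1. The groups lay far apart, with 141, 117 and 98 counts against 35, 35 and 26, so the precision is that of a low-count gene. The log2 fold change was -2.06 (SE 0.19), a level 4.17-fold lower, with pair differences of -2.26, -1.80 and -1.88.

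DUSP8 (ENSG00000184545) and KRTAP5-AS1 start close together on opposite strands. In RefSeq the 2 starts used above lie 470 bases apart, pointing away from each other, and the promoter windows printed above share 31 bases. In GENCODE release 29 the gene bodies overlap by 568 bases but their exons share 0 bases. There KRTAP5-AS1 has a 2931-base exon model, of which 1047 bases lie opposite KRTAP5-2, a gene that had a mean of 1.17 counts per library. Whether the counting used the strand is not stated. Of the 707 genes whose exons lie wholly within opposite-strand exons of other genes, 48.4% had at least 10 counts in all libraries together, against 13.2% of the 806 genes that lie wholly within same-strand exons. For the 8317 antisense and lincRNA genes without exon overlap the share was 26.8%.

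The 2 transcripts were lower together but by different amounts. For each 100 counts of DUSP8 there were 9.94, 9.80 and 11.6 counts of KRTAP5-AS1 in the empty vector libraries B, C and D and 2.92, 4.31 and 3.70 in the ppk1 libraries. The log2 difference of KRTAP5-AS1 minus that of DUSP8 came to -1.68 (pair B), -1.13 (pair C) and -1.58 (pair D). Of 18 other genes of the region, listed from BRSK2 to H19, only BRSK2, MOB2, CTSD and MRPL23 had enough counts to be tested. BRSK2 (log2 fold change 0.01, SE 0.08) and MOB2 (-0.02, SE 0.09), on one side, and CTSD (0.22, SE 0.07), on the other, were not called. MRPL23, a mitochondrial ribosomal protein gene, was called higher (0.30, SE 0.08), though its groups overlapped. None of the 18 genes was called higher without the block, with DESeq2, with upper-quartile scaling or without replicate C (at most 2 at an unadjusted p below 0.05 in each). KRTAP5-1 to KRTAP5-6 had means between 0 and 1.17 counts per library and were not tested.

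**Figure D4:**
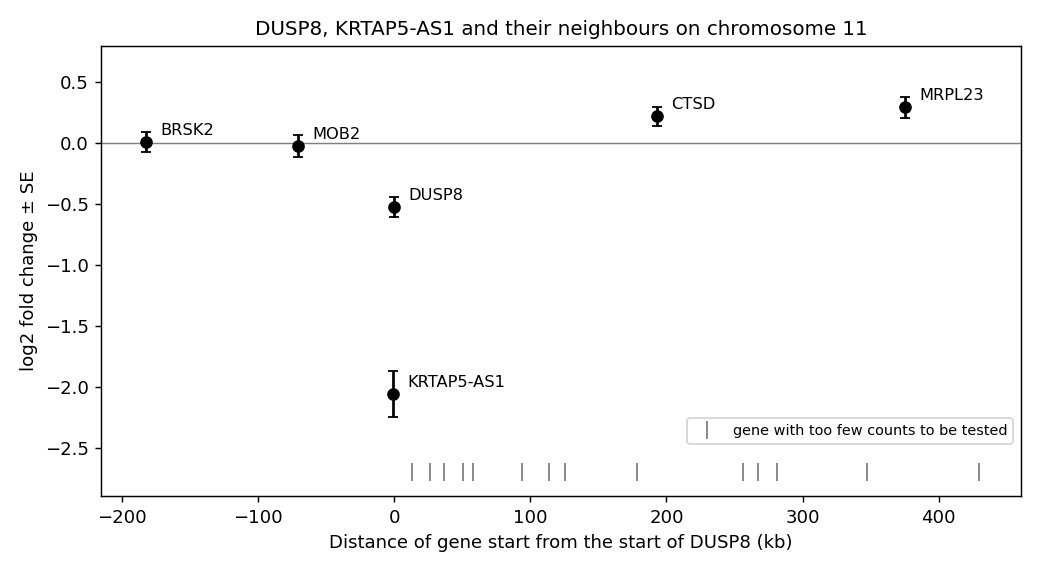
Log2 fold change with its SE against the distance of each gene's start from the start of DUSP8, in kb (GENCODE release 29), for the tested genes, with ticks at the bottom for genes with too few counts to be tested. DUSP8 (-0.52) and KRTAP5-AS1 (-2.06) lie below 0, and the 4 tested neighbours lie between -0.02 and 0.30.

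The rest of the pathway is given from lists chosen with earlier results of these data known. In the fit with the replicate block, 9.08% of all tested genes were called, 4.04% higher and 5.04% lower. With short lists chosen in this way, nothing is read from the counts called. Of 22 other dual-specificity phosphatases, which act mostly on substrates other than MAP kinases, 18 could be tested and 0 were called by edgeR or DESeq2 (2 at an unadjusted p below 0.05 in edgeR and 1 in DESeq2), and 1 was called lower without replicate B. Their log2 fold changes lay between -0.32 (DUSP19) and 0.26 (DUSP23), with a median of -0.03. Among 14 MAP kinases, MAPK7, which encodes ERK5, was called higher and MAPK10, which encodes the JNK form JNK3, was called lower. MAPK10 was at 2.01, 2.42 and 3.04 CPM in the empty vector libraries and at 1.63, 1.38 and 1.32 CPM with ppk1, a log2 fold change of -0.74 (SE 0.17). MAPK7 was at 21.2, 23.1 and 18.7 CPM in the empty vector libraries and at 24.2, 30.5 and 25.0 CPM with ppk1, a log2 fold change of 0.33 (SE 0.08). Neither group overlapped the other in these genes. No MAP kinase was called higher without the block or without replicate C, and none lower with DESeq2 or without replicate D (1 or 2 at an unadjusted p below 0.05 in each).

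Of 15 kinases upstream of the MAP kinases, 1 was called, MAP3K1, which feeds the JNK branch, with a log2 fold change of -0.25 (SE 0.08). That count is near the share of all tested genes called, 9.08%. No kinase of this list was called lower without the block, with DESeq2, without the filter on low counts or without replicate C (at most 1 at an unadjusted p below 0.05). In the other direction, 0 were called higher with all pairs (1 at an unadjusted p below 0.05 in edgeR and 1 in DESeq2) and 2 without replicate B. Of 8 phosphatases of other families that act on MAP kinases, 6 were tested and 1 was called, PPM1D, which acts on p38 and is also a p53 target. PPM1D was at 66.1, 68.9 and 71.5 CPM in the empty vector libraries and at 46.4, 48.8 and 45.3 CPM with ppk1, with no overlap between the groups and a log2 fold change of -0.55 (SE 0.08).

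Of 23 transcripts known to be induced through ERK, 9 were called higher and 0 lower. Of all tested genes, 4.04% were called higher and 5.04% lower. At an unadjusted p below 0.05, 1 of the 23 was lower in edgeR and 1 in DESeq2, and 1 was called lower without replicate D. The median log2 fold change was 0.23, beside 0.01 over all tested genes, and 15 of the 23 were above 0. In all 3 pairs 13 were higher, and FOSL1, MYC, EPHA2 and EPHA4 were lower. All 3 pairs were higher in 22.6% and lower in 21.1% of all tested genes. The count called higher was 6 without the block, with DESeq2, with the stricter filter and without replicate B or D. It was 7 with upper-quartile scaling or without replicate C. Over the whole table, 0.455% of genes were called higher without the block, 1.89% with DESeq2 and 0.415% without replicate C. The 4 with the smallest adjusted p were EGR1 (1.19, SE 0.09), ETV5 (1.115, SE 0.13), FOSB (0.70, SE 0.11) and ETV4 (0.71, SE 0.13). The log2 fold change of DUSP6, 0.68, had the larger SE, 0.22. All these differences come from the same 6 libraries.

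The genes whose pattern over the 6 libraries lay closest to that of DUSP6, by Euclidean distance of centred log2 CPM among the 15086 genes whose mean count reached 50, were ZCCHC12 (distance 0.32), TMEM256-PLSCR3 (0.34) and C10orf10 (0.35). For KRTAP5-AS1 they were CTD-2377D24.6 (0.49), DHRS2 (0.50) and MGAM (0.54), with log2 fold changes of -1.76, -1.84 and -2.03. Those of the 3 genes nearest to DUSP6 were 0.56, 0.54 and 0.61. The distance includes the difference between the groups, so the nearest genes share much of it by construction.

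By stretches of 50 bases, 0% of the transcript sequence of the phosphatases occurs in same-strand transcripts of other genes, except 1.9% for DUSP8. With both strands counted the share was 37.1% for DUSP6 and 35.5% for KRTAP5-AS1. For DUSP6 this is a gene on the opposite strand, AC024909.2, which covers 1875 of its 4632 exon bases and had a mean of 0.50 counts per library.

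**Figure D5:**
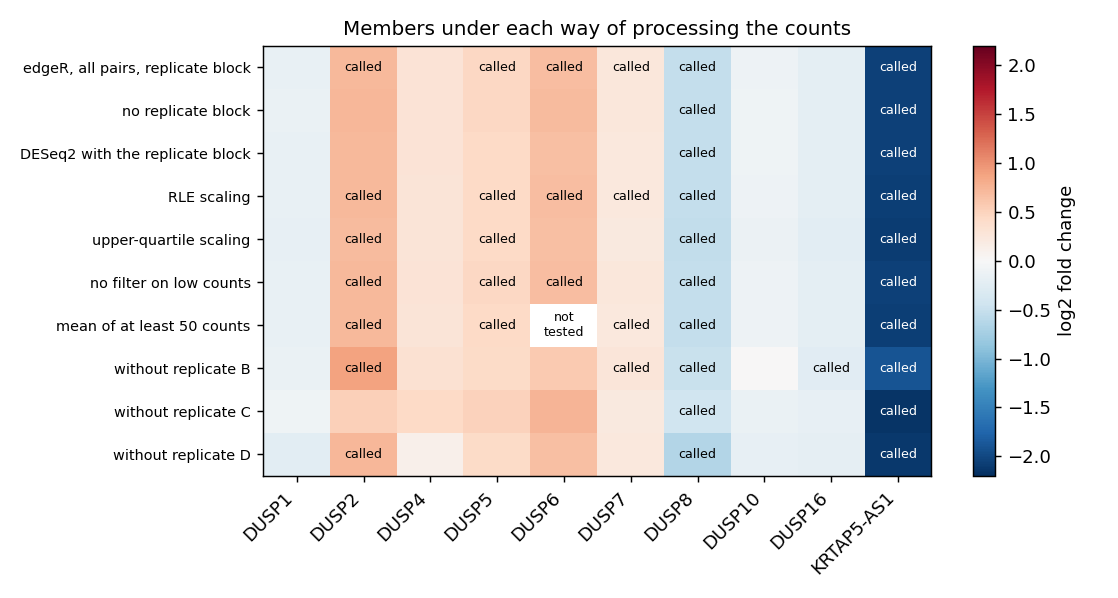
Log2 fold change (colour) of the 10 genes under each way of processing the counts, with the word "called" where the adjusted p was below 0.05. DUSP8 and KRTAP5-AS1 are called in each of the 10 fits shown, and no member is called higher without the replicate block, with DESeq2 or without replicate C.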

How the data were processed

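The authors deposited 1 table of raw read counts, whole numbers per Ensembl gene, with 6 columns that were matched to the samples by name. The submitters' processing notes name bcl2fastq 2.20, Trimmomatic, STAR, HTSeq, edgeR, DESeq, Cufflinks and Cuffdiff without their roles. The genome build, annotation release and use of strand are not given in the sources used here. Per the labels' protocols, the libraries were poly(A)-selected and made with a directional kit.

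Counts were tested over the whole table with edgeR 4.0.16 in R 4.3.3 (glmQLFit and glmQLFTest, filterByExpr with a minimum count of 10, TMM scaling, replicate letter as block, Benjamini-Hochberg threshold 0.05). The test was also run on simulated counts, where all genes had the same spread and no library deviated. That setting is simpler than these data, so it does not vouch for single calls here. Alternatives were no block, DESeq2 1.42.0, other scaling and filters, and each pair left out. Each SE is |log2 fold change|/√F from the fit. CPM uses TMM-scaled totals, and pair differences use log2 CPM with a prior count of 2. In the empty vector and ppk1 libraries, 3 counts correspond to between 0.0449 and 0.0734 CPM. P-values concern these libraries only. The fit pools its estimate of spread over genes, and the weight of the pooled estimate (prior degrees of freedom) was 47.5 with the block and 8.75 without. With the block, each p-value and SE thus rests largely on the pooled spread and little on that of the gene itself. The pairing is taken from the series text. Once group means were removed, the 2 libraries of a letter correlated across genes at 0.109 (B), 0.135 (C) and 0.0476 (D), against values from -0.12 to -0.00506 between letters. Removing the means makes deviations cancel within each group, so positive values within letters entail negative ones between letters. The contrast is therefore not separate support for the pairing.

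Exon lengths, overlaps and shared sequence come from GENCODE release 29, and promoters from RefSeq (GRCh38.p14), where 8 of the 10 genes matched by symbol. Genes and lists were chosen with earlier results of these data known. Named are the 10 genes, DUSP9, up to 4 called genes per list by adjusted p, and the 3 genes nearest in pattern to DUSP6 and KRTAP5-AS1.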

Additional observations from a re-analysis of the deposited data

How the results depend on the processing

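Of 89 values of the 10 genes under the alternatives, 67 kept direction and side of the threshold, 20 lost the call, 1 gained it and 1 changed direction. The last was DUSP10, at 0.0031 without replicate B (lowest -0.19, without D). DUSP9, outside the set, was at -0.11 without D and 0.12 without C. DUSP8 ranged from -0.64 to -0.45 and KRTAP5-AS1 from -2.17 to -1.89, called throughout. In place of 4 members called higher there were 0 without the replicate block, 0 with DESeq2, 2 with upper-quartile scaling, and between 0 (without C) and 2 (without B) when a pair was left out. The stricter filter left DUSP6 untested. Over all genes, 1777 calls (791 higher, 986 lower) became 470 (89 and 381) without the replicate block and 755 (324 and 431) with DESeq2. Upper-quartile scaling called 422 higher. Leaving out 1 pair gave 406 to 2435 calls, the fewest without C, with 82 to 1263 higher and 324 to 1172 lower. The cause was not tested. The excess of KRTAP5-AS1 over DUSP8, -1.54 in the fit, ran from -1.72 to -1.40. Depth limits DUSP6, DUSP2 and KRTAP5-AS1, whose means were between 47.5 and 75.3 counts per library.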
